A study of Mus musculus with 8 samples.

Results

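The transcripts of the feedback inhibitors of the ERK pathway were examined in 4T1 cells separated by SCA1, the surface protein encoded by Ly6a. The group holds 10 genes, namely the MAP kinase phosphatases Dusp1, Dusp4, Dusp5, Dusp6 and Dusp10, the Sprouty genes Spry1, Spry2 and Spry4, and the Spred genes Spred1 and Spred2. They were chosen by gene family and matched by symbol to the Ensembl identifiers of the count table, where they were 10 of 16341 genes counted. All 10 were also among the 11717 genes tested after the filter on low counts. 4T1 is a mouse mammary carcinoma line, and the question of the comparison is which transcripts distinguish its SCA1-positive from its SCA1-negative cells. RNA was sequenced from 4 libraries of 4T1-Sca1+ cells and 4 libraries of 4T1-Sca1- cells, with no treatment, time point or genetic change named for either group. The source label and the study give the parental line as the origin, whereas the protocol speaks of stained tumor and a sort label adds a CD45-negative gate, so the groups are named here by the marker alone. Both groups come from a single cell line and were split by SCA1, for which the study describes magnetic sorting. Nothing in the labels says that the 4 libraries of a group were separate sorts. The p-values therefore measure the spread between these libraries, which may be technical.

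Growth factor receptors activate RAS, which drives RAF, MEK and the ERK kinases, and active ERK enters the nucleus and raises the transcription of its own inhibitors. Dual-specificity MAP kinase phosphatases remove the activating phosphates from ERK, p38 or JNK, with different preferences among the family, while Sprouty and Spred proteins act higher up, between the receptor, RAS and RAF. Because many of these genes are themselves induced by ERK, their transcripts are often read as a record of pathway output in epithelial and carcinoma cells, but RNA does not measure ERK phosphorylation or phosphatase activity, and neither was measured here.

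Library totals ran from 15041995 to 16968215 counts in the Sca1+ group and from 13561804 to 16142836 in the Sca1- group. Ly6a, the gene of the sorted protein, had 167 ± 20.2 normalized counts (SD, n = 4) in Sca1+ libraries and 1.79 ± 1.73 in Sca1- libraries, in the direction of the labels. Epithelial markers were abundant in both groups, with summed normalized counts of 59166 to 64779 in Sca1+ and 60809 to 65654 in Sca1- libraries. Of the 9 epithelial markers tested, 4 were lower in Sca1+ cells (Cdh1, Cldn4, Krt7 and Krt14) and 2 higher (Krt8 and Krt18). That is 66.7% called, against 61.5% of all genes tested. Leukocyte markers were low, and the 4 of 12 that could be tested (Cd68, Cd74, Csf1r and S100a8) were all higher in Sca1+ cells, with summed values of 403 to 471 against 226 to 264, while Ptprc, the CD45 gene, held at most 4 counts in any library and Lyz2 at most 1. Fibroblast markers summed to between 634.5 and 671 against 395 to 468, with 2 of 3 tested higher (Pdgfra and Col1a1), and of 7 endothelial markers only Tie1 could be tested, which was lower, with sums of 34.7 to 43.9 against 42.3 to 66.2. Among all genes tested, 31.3% were higher in Sca1+ cells and 30.2% lower. In bulk RNA, fewer cells of a type and less RNA per cell cannot be told apart, and the part of these other cell types in the results was not tested. Sca1+ replicate 3 stood apart, with a chi-square per degree of freedom of 7.02 to 10.1 against the other Sca1+ libraries, where other pairs within a group gave 1.92 to 5.68. Its gene levels also rose with transcript GC content, by 0.25 log2 CPM per 10% of GC, against 0.04 to 0.08 in the other Sca1+ libraries and -0.17 to -0.02 in the Sca1- libraries. For the 10 genes, values with GC-corrected offsets or without that library are given where they moved most.

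Of the 10 feedback genes, 5 were higher in Sca1+ cells (Dusp4, Dusp6, Spry1, Spred1 and Spred2), 2 were lower (Dusp1 and Dusp5) and 3 were not called (Dusp10, Spry2 and Spry4). The calls are those of edgeR's quasi-likelihood test at a Benjamini-Hochberg adjusted p under 0.05 over all genes tested. Under the same rule 61.5% of all genes tested were called, 31.3% as higher and 30.2% as lower, so 7 calls among 10 genes lie close to the background. Normalized counts, which are counts divided by a size factor per library, did not overlap between the groups for those 7 genes, a separation seen in 54.7% of all genes tested, with 26.8% higher and 27.9% lower. With GC-corrected offsets 8 of the 10 were called, against 65.3% of all genes tested. The median log2 fold change of the 10 genes, coded as Sca1+ minus Sca1-, was 0.18, against 0.01 over all genes tested. The largest rise was that of Dusp4 and the largest fall that of Dusp5, both phosphatases of the nucleus, and Dusp4 alone was called with an absolute log2 fold change of 1 or more, as were 6.1% of all genes tested. That call changed with the processing, since no gene of the 10 reached this size without Sca1+ replicate 3 (Dusp4 at 0.99) and Dusp5 alone did with GC-corrected offsets (-1.05, with Dusp4 at 0.93). The plot of normalized counts by library shows each gene in every library.

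**Figure D1:**
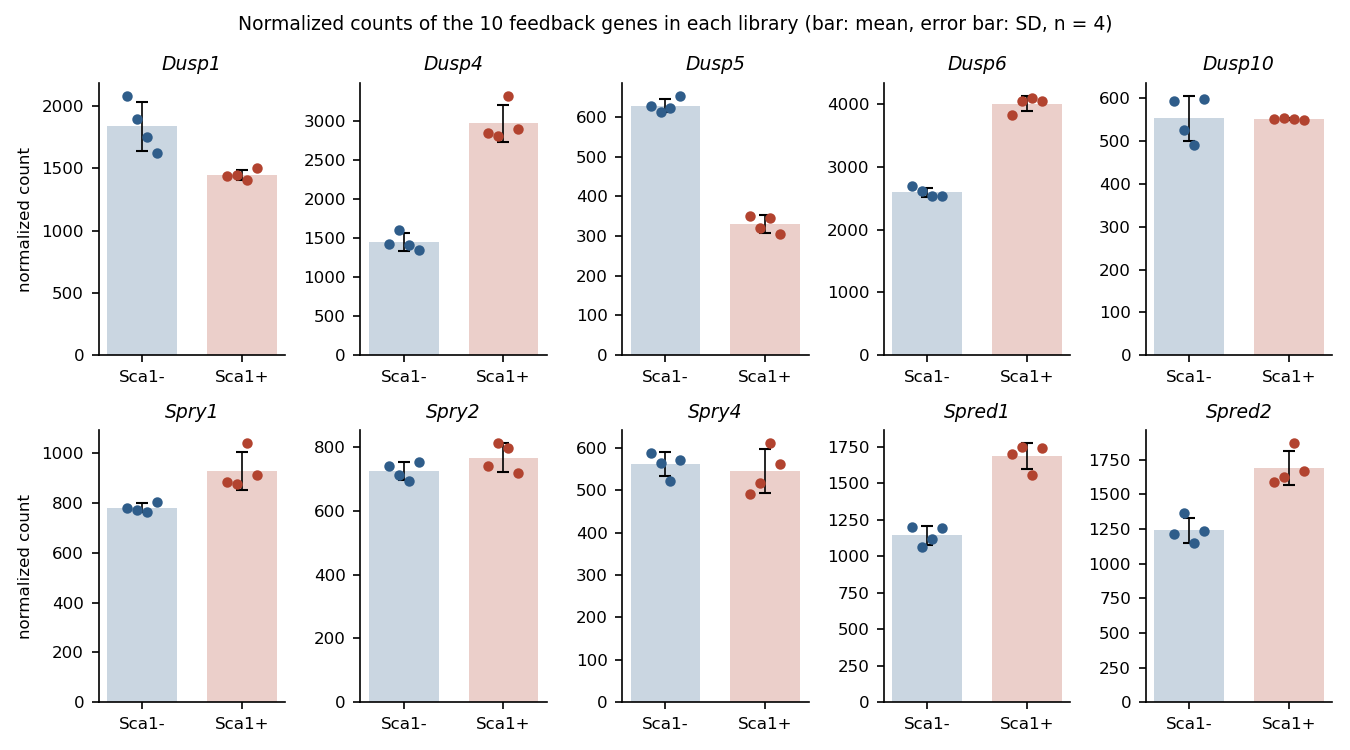
Normalized counts (y axes, each from 0) of the 10 feedback genes in the 4 Sca1- libraries (blue) and the 4 Sca1+ libraries (red), with points for libraries, bars for means and error bars for SD. Dusp4, Dusp6, Spry1, Spred1 and Spred2 lie higher in every Sca1+ library, Dusp1 and Dusp5 lie lower, and the points of Dusp10, Spry2 and Spry4 overlap.

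Promoter windows of 300 bases, from 250 bases before the annotated start to 50 after it, were matched by symbol in RefSeq for 8 of the 10 genes on GRCm38.p6, all but Dusp4 and Spry4. Those of Dusp1 and Dusp5, the genes that were lower, are printed beside those of Dusp6 and Spred2, which were higher, to show what the windows hold of the motifs bound by factors that receive ERK and stress signals. Capitals mark the cyclic AMP response element TGACGTCA, its core TGACG on either strand (CGTCA when read on the other), and the CArG box, the site of serum response factor, which is a run of A and T between a pair of C and a pair of G. The windows are chr17:26508423-26508722 on the minus strand for Dusp1, chr19:53528895-53529194 on the plus strand for Dusp5, chr10:99262981-99263280 on the plus strand for Dusp6 and chr11:19924192-19924491 on the plus strand for Spred2, each written 5′ to 3′ along the gene.
Dusp1: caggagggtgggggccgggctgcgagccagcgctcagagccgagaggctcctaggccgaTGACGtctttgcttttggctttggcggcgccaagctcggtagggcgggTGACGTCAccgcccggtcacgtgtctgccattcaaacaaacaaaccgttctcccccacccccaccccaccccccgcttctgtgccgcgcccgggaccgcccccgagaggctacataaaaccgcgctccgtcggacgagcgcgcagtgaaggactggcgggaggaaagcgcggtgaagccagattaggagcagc
Dusp5: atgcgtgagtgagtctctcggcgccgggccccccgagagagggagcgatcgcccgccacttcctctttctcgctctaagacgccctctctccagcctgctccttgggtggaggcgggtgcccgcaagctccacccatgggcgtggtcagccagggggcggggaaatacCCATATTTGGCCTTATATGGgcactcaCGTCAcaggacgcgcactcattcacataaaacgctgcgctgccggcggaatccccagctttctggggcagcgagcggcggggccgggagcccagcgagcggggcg
Dusp6: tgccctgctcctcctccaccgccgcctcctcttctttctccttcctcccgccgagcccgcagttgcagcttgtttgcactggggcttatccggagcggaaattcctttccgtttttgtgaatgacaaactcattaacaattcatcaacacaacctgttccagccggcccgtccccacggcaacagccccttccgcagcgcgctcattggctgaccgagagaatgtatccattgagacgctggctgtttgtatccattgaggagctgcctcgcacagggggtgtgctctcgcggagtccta
Spred2: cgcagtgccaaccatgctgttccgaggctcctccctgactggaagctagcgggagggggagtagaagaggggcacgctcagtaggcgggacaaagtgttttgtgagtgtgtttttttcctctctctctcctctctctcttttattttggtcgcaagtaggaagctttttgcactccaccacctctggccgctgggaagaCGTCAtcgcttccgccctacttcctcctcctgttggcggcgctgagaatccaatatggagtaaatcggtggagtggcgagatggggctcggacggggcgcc
Dusp5 held 2 CArG boxes side by side, at bases -82 to -73 and -72 to -63 from the start, and no other of the 8 windows held one. A CArG box was found in 1.63% of 32851 promoter windows of the same length. Dusp1 alone held TGACGTCA, at -143 to -136, a sequence found in 1.79% of all windows. The core TGACG, which lies within that site, was in 3 of the 8 (Dusp1, Dusp5 at -55 to -51 and Spred2 at -51 to -47) and in 20.8% of all windows. Dusp6 held none of these. Positions were counted from the RefSeq start, which can differ from the ends of the gene spans given below, taken from GENCODE. For Dusp1 and Dusp10 the whole window lay inside the gene span.

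Of the other motifs searched on both strands, the ETS core GGAAG was in 5 of 8 windows (Dusp5, Dusp6, Spry2, Spred1 and Spred2) against 71.4% of all, and its longer form CCGGAAG was in none, against 8.86%. The GC box GGGCGG was in 6 of 8 against 35.7% and the CCAAT box in 4 of 8 against 37.4%. The AP-1 site TGANTCA (7.81% of all windows), the EGR site GCGNGGGCG (5.55%), the STAT site TTCNNNGAA (8.30%) and the TATAAA box (13.6%) were in none of the 8. GGAAG lies within CCGGAAG, as TGACG does within TGACGTCA. A match is a description of letters, and binding was not measured.

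**Figure D2:**
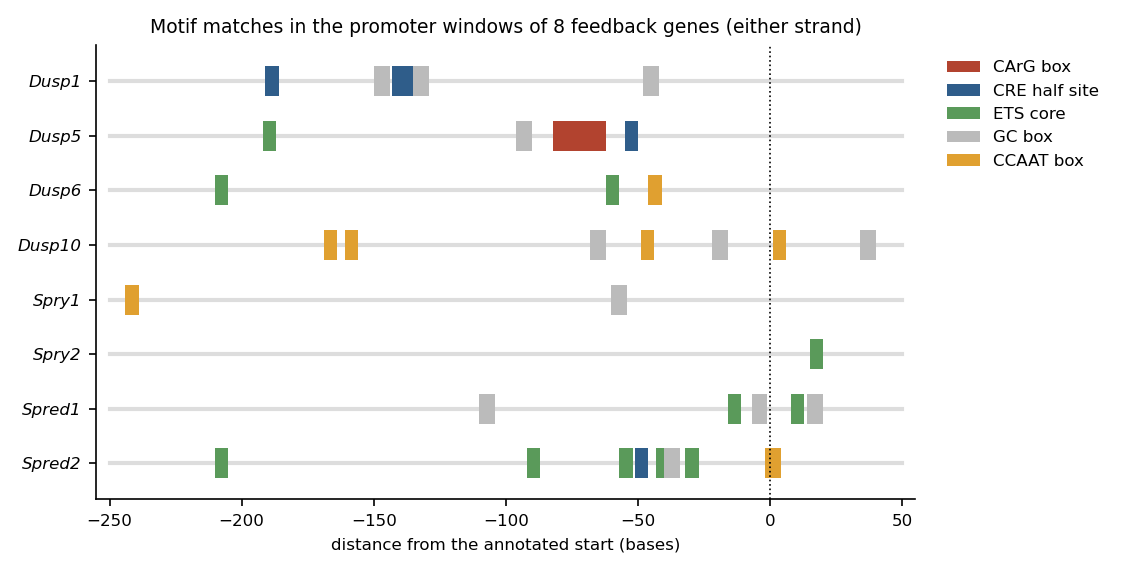
Positions of motif matches on either strand in the promoter windows of 8 feedback genes, with distance from the annotated start in bases on the x axis, 1 line per gene and colors for motifs. The adjacent CArG boxes of Dusp5 are the only ones drawn, and the GC boxes and ETS cores are spread over most of the genes.

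The nuclear, inducible phosphatases moved in opposite directions. Dusp4 (ENSMUSG00000031530; chr8:34807297-34819894, plus strand) encodes a nuclear phosphatase of ERK, JNK and p38. It stood at 2844, 2806.5, 3314.5 and 2887 normalized counts in Sca1+ libraries 1 to 4 and at 1425, 1606, 1409 and 1349 in Sca1- libraries 1 to 4. The lowest Sca1+ library lay far above the highest Sca1- library, and Sca1+ replicate 3 was the highest of all. Its log2 fold change was 1.05 ± 0.06 (SE), or 2.06-fold higher in Sca1+ cells (edgeR adjusted p = 1.42e-10), rank 572 from the top of 11717 genes. It was 0.99 without Sca1+ replicate 3 and 0.93 with GC-corrected offsets.

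Dusp5 (ENSMUSG00000034765; chr19:53529109-53542431, plus strand) encodes the nuclear phosphatase that is selective for ERK. Its normalized counts were 351, 319.5, 346 and 305 in the Sca1+ libraries and 628, 612, 622 and 653 in the Sca1- libraries. Every Sca1+ library was thus below every Sca1- library by a margin many times the spread within either group. The log2 fold change was -0.92 ± 0.06, or 1.89-fold lower in Sca1+ cells (edgeR adjusted p = 1.19e-09), rank 139 from the bottom of 11717, and it was -1.05 with GC-corrected offsets. Dusp5 is a gene of the study's own SCA1-negative signature, which was chosen on these same libraries, so that listing is not independent evidence of its direction. Its annotated exons share 547 bases with an antisense gene that was not counted, and whether counting used strand is not given in the sources used here.

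Dusp1 (ENSMUSG00000024190; chr17:26505590-26562128, minus strand) encodes a nuclear phosphatase of p38, JNK and ERK and is an immediate early gene, transcribed within minutes of stress or growth factor. It had 1436, 1445, 1409 and 1503 normalized counts in the Sca1+ libraries and 2082, 1899, 1752 and 1625 in the Sca1- libraries. The groups did not overlap, but the Sca1- libraries were spread widely, with an SD of 196 against 39.3. The log2 fold change was -0.33 ± 0.06, or 1.26-fold lower (edgeR adjusted p = 0.000172), and -0.41 with GC-corrected offsets. Its exons share 11 bases with Ergic1, a counted gene on the opposite strand. Genes of the stress that cells undergo during dissociation moved both ways, with 7 of 17 tested higher and 6 lower (76.5% called, against 61.5% of all genes tested). Among these, the transcription factors Atf3 and Klf6 were lower, by -2.42 ± 0.07 and -1.40 ± 0.06 on the log2 scale, and the immediate early gene Ier2 was higher by 0.57 ± 0.09 (0.32 with GC-corrected offsets), and the part of handling in the Dusp1 value was not tested. Dusp2, the remaining nuclear phosphatase of the family, was scarce, at 41.4 to 47.9 normalized counts against 23.4 to 27.7, and higher by 0.74 ± 0.16 (edgeR adjusted p = 0.000769).

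Dusp6 (ENSMUSG00000019960; chr10:99263231-99267489, plus strand) encodes the cytoplasmic phosphatase that is selective for ERK and is among the transcripts most tied to ERK activity. It held 3829, 4053, 4093.5 and 4053 normalized counts in the Sca1+ libraries and 2686, 2613, 2541 and 2528 in the Sca1- libraries, the highest counts of the 10 genes in either group. Both groups were tight, and all Sca1+ libraries lay above all Sca1- libraries. Its log2 fold change was 0.64 ± 0.04, or 1.56-fold higher (edgeR adjusted p = 9.30e-10), with 0.67 under GC-corrected offsets and 0.63 to 0.66 when any 1 library was left out. Its cytoplasmic relatives were not called, with a log2 fold change of 0.11 ± 0.06 for Dusp7 and -0.05 ± 0.05 for Dusp9, although Dusp9 was called as lower (-0.24) with GC-corrected offsets and Dusp7 as higher (0.16) with library totals alone.

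Dusp10 (ENSMUSG00000039384; chr1:184013302-184075636, plus strand) encodes a phosphatase that acts on p38 and JNK. Its normalized counts were 552, 554, 552 and 549.6 in the Sca1+ libraries and 595, 527, 492 and 599 in the Sca1- libraries. The Sca1+ values fell inside the Sca1- range. The log2 fold change was 0.01 ± 0.07 (edgeR adjusted p = 0.921), with a 95% interval of -0.13 to 0.15 that leaves room for a small difference in either direction, and its sign turned without Sca1- replicate 2 or 3. The related JNK and p38 phosphatases Dusp8 and Dusp16 were lower in Sca1+ cells, with Dusp8 at -0.58 ± 0.06 (edgeR adjusted p = 3.55e-07) and Dusp16 at -0.43 ± 0.05 (edgeR adjusted p = 1.24e-06). Whether Dusp10 differs from them in its response was not tested.

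Ratios of transcripts within a library do not depend on the scaling between libraries. Dusp4 counts were 8.10 to 9.58 times the Dusp5 counts in the Sca1+ libraries and 2.07 to 2.62 times in the Sca1- libraries. The ratio of Dusp4 to Dusp1 was 1.92 to 2.35 against 0.684 to 0.845, so Dusp4 had more counts than Dusp1 in every Sca1+ library and fewer in every Sca1- library. Dusp6 counts were 10.9 to 13.3 times the Dusp5 counts in Sca1+ and 3.87 to 4.28 times in Sca1- libraries. Relative to Dusp1, Dusp6 stood at 2.67 to 2.90 against 1.29 to 1.56. None of these ratios overlapped between the groups, though each rests on genes whose separate values are given above, and a ratio shows unequal change without saying which gene changed.

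Dividing CPM by the length of the merged exons allows levels to be compared between genes. On this length-scaled level, the 10 MAP kinase phosphatases that were counted (the 5 above with Dusp2, Dusp7, Dusp8, Dusp9 and Dusp16) summed to 298 ± 11.5 in Sca1+ and 242 ± 6.88 in Sca1- libraries (SD, n = 4). Dusp6 made up 28.8% ± 0.898 of that sum in Sca1+ and 22.1% ± 0.368 in Sca1- libraries, the largest share in both. The share of Dusp4 was 24.2%, 23.6%, 25.7% and 23.8% in Sca1+ libraries 1 to 4 and 13.6%, 15.2%, 13.9% and 13.6% in Sca1- libraries 1 to 4. Dusp4 thus took a far larger part of the phosphatase transcripts in each Sca1+ library. The share of Dusp5 was 3.01% ± 0.215 against 6.79% ± 0.384 and that of Dusp1 was 9.86% ± 0.554 against 14.8% ± 1.19. Dusp10 took 4.09% ± 0.171 against 4.85% ± 0.509. The percentages depended on the length used, while the directions for Dusp4, Dusp1 and Dusp5 did not. With the longest transcript as the length, Dusp4 held 22.1% in Sca1+ against 12.6% in Sca1- libraries. Dusp1 then held 12.8% against 18.9% and Dusp5 2.74% against 6.07%.

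Grouped by where they act and on what, by a classification written after the values were seen, the phosphatases shifted in share by different amounts. The nuclear inducible group (Dusp1, Dusp2, Dusp4 and Dusp5) held 37.7% ± 0.543 of the summed level in Sca1+ and 36.0% ± 1.01 in Sca1- libraries, while the summed level of all 10 was itself higher in Sca1+ libraries. With the longest transcript as the length, these values were 38.3% and 37.9% and the groups overlapped. The cytoplasmic ERK-directed group (Dusp6, Dusp7 and Dusp9) held 53.9% ± 0.447 against 51.8% ± 0.943, with no overlap between the groups under either length. The JNK- and p38-directed group (Dusp8, Dusp10 and Dusp16) held 8.41% ± 0.218 against 12.2% ± 0.540 and did not overlap under either length.

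**Figure D3:**
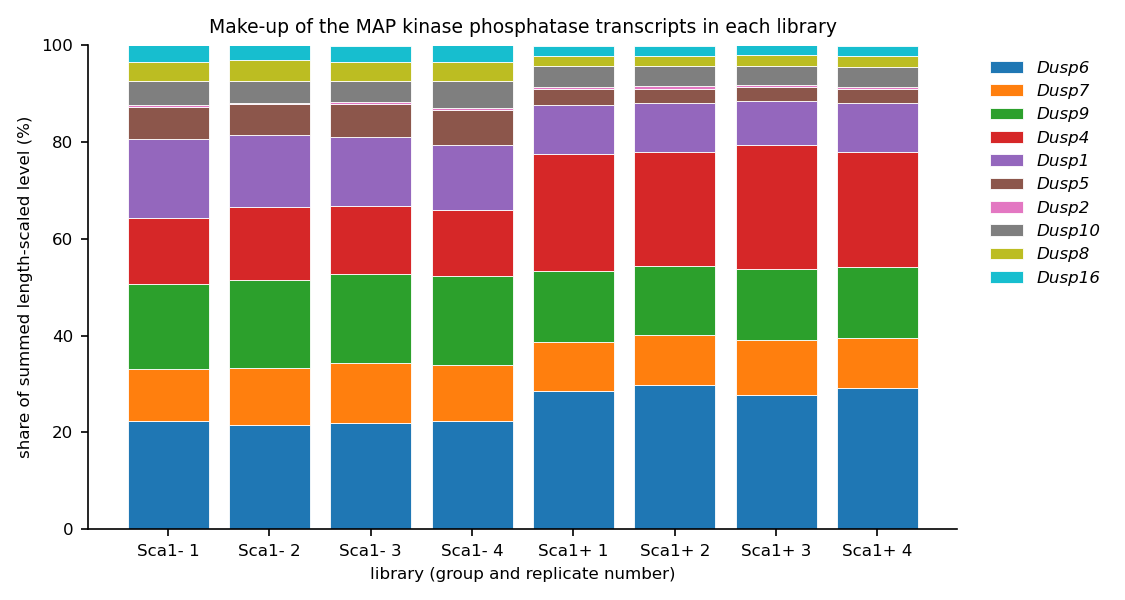
Share of each of 10 MAP kinase phosphatase transcripts in their summed length-scaled level (y axis, percent), with 1 bar for each library of the Sca1- and Sca1+ groups. The Dusp4 band is wider in all 4 Sca1+ libraries (23.6% to 25.7%) than in the Sca1- libraries (13.6% to 15.2%), and the Dusp5 and Dusp1 bands are narrower.

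Sprouty proteins are induced by growth factors and block the passage of the signal from receptor tyrosine kinases to RAS and RAF. Spry1 (ENSMUSG00000037211; chr3:37639947-37644598, plus strand) had 882, 877, 1038 and 910.2 normalized counts in the Sca1+ libraries and 779, 770.0, 764 and 805 in the Sca1- libraries. The groups did not overlap, and Sca1+ replicate 3 was the highest. The log2 fold change was 0.26 ± 0.06 (edgeR adjusted p = 0.000843), a 1.20-fold difference, and it fell to 0.20 without Sca1+ replicate 3 and to 0.12 with GC-corrected offsets (edgeR adjusted p = 0.0257). The transcript of Spry1 has a GC content of 56.7%, among the highest of the 10 genes. Its exons share 710 bases with an uncharacterized gene model on the opposite strand that was not counted.

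Spry2 (ENSMUSG00000022114; chr14:105891947-105896819, minus strand), whose product also restrains receptor signaling, had 740.3, 811, 796 and 717 normalized counts in the Sca1+ libraries and 739, 713, 691 and 752 in the Sca1- libraries. The groups overlapped. Its log2 fold change of 0.09 ± 0.06 was not called (edgeR adjusted p = 0.164; 95% interval -0.03 to 0.21). It was called at 0.15 with GC-corrected offsets (edgeR adjusted p = 0.0157) and at 0.14 with library totals alone as the scale (edgeR adjusted p = 0.047), so its call depended on the scaling.

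Spry4 (ENSMUSG00000024427; chr18:38586247-38601415, minus strand) had 491, 518, 610.4 and 562 normalized counts in the Sca1+ libraries and 587, 565, 521 and 572 in the Sca1- libraries. The Sca1+ values were scattered on both sides of the Sca1- range. The log2 fold change was -0.03 ± 0.07 (edgeR adjusted p = 0.720; 95% interval -0.18 to 0.11), and its sign turned when library totals alone were the scale or when Sca1+ replicate 1 was left out. No Sprouty gene was lower in Sca1+ cells by the test, and the fourth of the family, Spry3, was not counted.

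Spred proteins carry a Sprouty-like domain and act on RAS and RAF, and SPRED1 brings the RAS inhibitor neurofibromin to the membrane. Spred1 (ENSMUSG00000027351; chr2:117121374-117182279, plus strand) had 1701, 1747, 1558 and 1742.5 normalized counts in the Sca1+ libraries and 1204, 1067, 1121 and 1192 in the Sca1- libraries. All Sca1+ libraries were above all Sca1- libraries, and Sca1+ replicate 3 was the lowest of its group. The log2 fold change was 0.57 ± 0.05, or 1.49-fold higher (edgeR adjusted p = 8.62e-08), and 0.68 with GC-corrected offsets. With 41.2%, its transcript had the lowest GC content of the 10.

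Spred2 (ENSMUSG00000045671; chr11:19924375-20024026, plus strand) had 1591, 1625, 1869 and 1671 normalized counts in the Sca1+ libraries and 1215, 1362.5, 1149.9 and 1234 in the Sca1- libraries. The groups again did not overlap, with Sca1+ replicate 3 the highest. Its log2 fold change was 0.46 ± 0.06, or 1.37-fold higher (edgeR adjusted p = 3.35e-06), 0.44 with GC-corrected offsets and 0.40 without Sca1+ replicate 3. The relative Spred3 was higher as well, by 0.32 ± 0.07 (edgeR adjusted p = 0.000765), so all 3 counted Spred genes were higher in Sca1+ cells, where 31.3% of all genes tested were. The plot of fold changes sets the 10 genes beside their 6 counted relatives, of which 2 were higher, 2 lower and 2 not called (61.5% of all genes tested were called), with a median log2 fold change of 0.03.

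**Figure D4:**
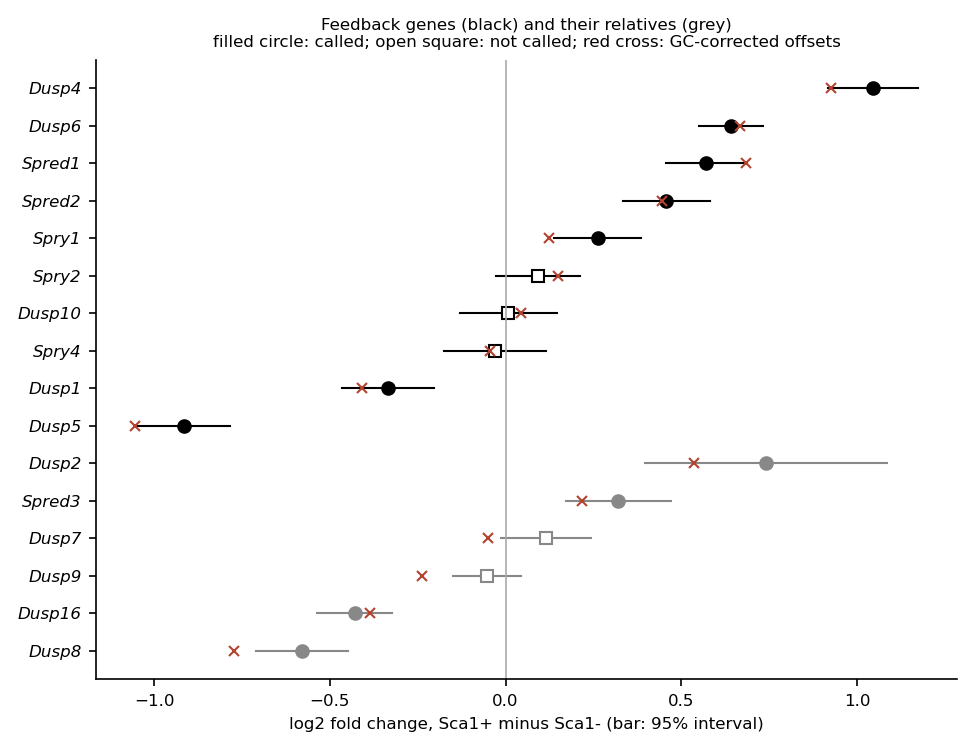
Log2 fold change (x axis, Sca1+ minus Sca1-) with its 95% interval for the 10 feedback genes (black) and 6 relatives (grey), as filled circles where called and open squares where not, with red crosses for GC-corrected offsets. Dusp4 lies at 1.05 and Dusp5 at -0.92, and the GC correction moves Spry1 from 0.26 to 0.12 and Dusp9 from -0.05 to -0.24.

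The order of the length-scaled levels differed between the groups. In Sca1+ libraries it ran from Dusp6 (85.8 ± 2.56 CPM per kilobase; SD, n = 4) and Dusp4 (72.5 ± 5.48) through Dusp1 (29.3 ± 0.913), Spry2 (24.6 ± 1.39), Spred2 (24.5 ± 1.71), Spry1 (21.4 ± 1.66) and Spred1 (16.7 ± 0.947) to Dusp10 (12.2 ± 0.0670), Dusp5 (8.96 ± 0.557) and Spry4 (7.69 ± 0.719). The level of Spry2 was within 1 SD of that of Spred2, and all other neighbours in this order were further apart than the larger of their SDs. In Sca1- libraries the order was Dusp6 (53.4 ± 1.54), Dusp1 (35.9 ± 3.84), Dusp4 (34.1 ± 2.34), Spry2 (22.4 ± 0.877), Spred2 (17.3 ± 1.09), Spry1 (17.3 ± 0.439), Dusp5 (16.4 ± 0.528), Dusp10 (11.7 ± 1.14), Spred1 (10.9 ± 0.678) and Spry4 (7.62 ± 0.380). There, Dusp1 and Dusp4, Spred2 and Spry1, and Dusp10 and Spred1 were each closer than the larger of their SDs. The closeness of Dusp1 and Dusp4 depended on the length used. With the longest transcript as the length, their shares of the phosphatase sum in Sca1- libraries were 18.9% ± 1.44 and 12.6% ± 0.686. That length was not applied to the Sprouty and Spred genes. Dusp6 was the highest and Spry4 the lowest in both groups, while Dusp5 stood below Dusp10 in Sca1+ and above it in Sca1- libraries.

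The pathway that these genes restrain showed changes in both directions. Of 19 genes of the RAS, RAF, MEK and ERK core, all tested, 5 were higher and 10 lower, with a median log2 fold change of -0.13. That is 78.9% called, against 61.5% of all genes tested, of which 31.3% were higher and 30.2% lower. Ksr1, a scaffold that holds RAF and MEK together, was higher by 0.75 ± 0.07, and Shoc2, a scaffold that promotes RAF activation, was lower by -0.47 ± 0.06. Of 17 genes often used as ERK output, 6 were higher and 9 lower (88.2% called), with a median of -0.10. The PEA3 factors Etv1, Etv4 and Etv5, known with Dusp6 and the Sprouty genes as ERK-induced transcripts, were higher by 0.97 ± 0.09, 0.69 ± 0.06 and 0.59 ± 0.06, whereas Ier3, an early gene of stress and growth factor signals, was lower by -0.46 ± 0.05. Etv1 had the highest value of the output list and Ier3 the lowest. These named genes are its extremes, and more of the called genes in the list were lower than higher. The AP-1 genes of this list, Fos and Fosl1, were not called, at -0.06 and -0.01, although Fosl1 was called as lower (-0.19) with GC-corrected offsets. Other AP-1 genes, taken from the dissociation list, moved both ways. Fosb was lower by -0.35 ± 0.09, and Jund was higher by 0.48 ± 0.14 but not called with GC-corrected offsets (0.01). Jun and Junb were not called, at -0.07 and 0.13, although both were called as lower (-0.18) with GC-corrected offsets.

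Among 13 other inhibitors of RAS and ERK signaling, 6 were higher, 2 lower and 5 not called (median 0.11), and Il17rd, a membrane inhibitor of fibroblast growth factor signaling, was higher by 0.63 ± 0.14. A list of 12 atypical dual-specificity phosphatases, which lack the kinase-binding domain of the MAP kinase phosphatases, had 2 higher and 4 lower of 9 tested (median -0.20), with Dusp14 lowest at -0.9995 ± 0.05, a gene that is also in the study's SCA1-negative signature from these libraries. That list leaves out Dusp13 (1.20 ± 0.25) and Dusp27 (1.41 ± 0.14), atypical members that were both called higher, so its tally does not cover the whole class. Of 16 genes of the JNK, p38 and ERK5 arms tested, 5 were higher and 4 lower (median -0.01). Of 13 genes for kinases downstream of ERK and for regulators of RNA decay, 6 were higher and 5 lower (median 0.15). In this list the RNA-decay factors Zfp36 (-0.57 ± 0.07) and Zfp36l2 (0.77 ± 0.07) lay on opposite sides. The share of genes called was 56.2% for the JNK, p38 and ERK5 arms and 61.5% for the other inhibitors. It was 66.7% for the atypical phosphatases and 78.9% for the RAS to ERK core. The downstream kinases and RNA decay regulators had 84.6% called and the ERK output genes 88.2%. Of all genes tested 61.5% were called, 31.3% as higher and 30.2% as lower. None of the lists had all its called genes on the same side.

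**Figure D5:**
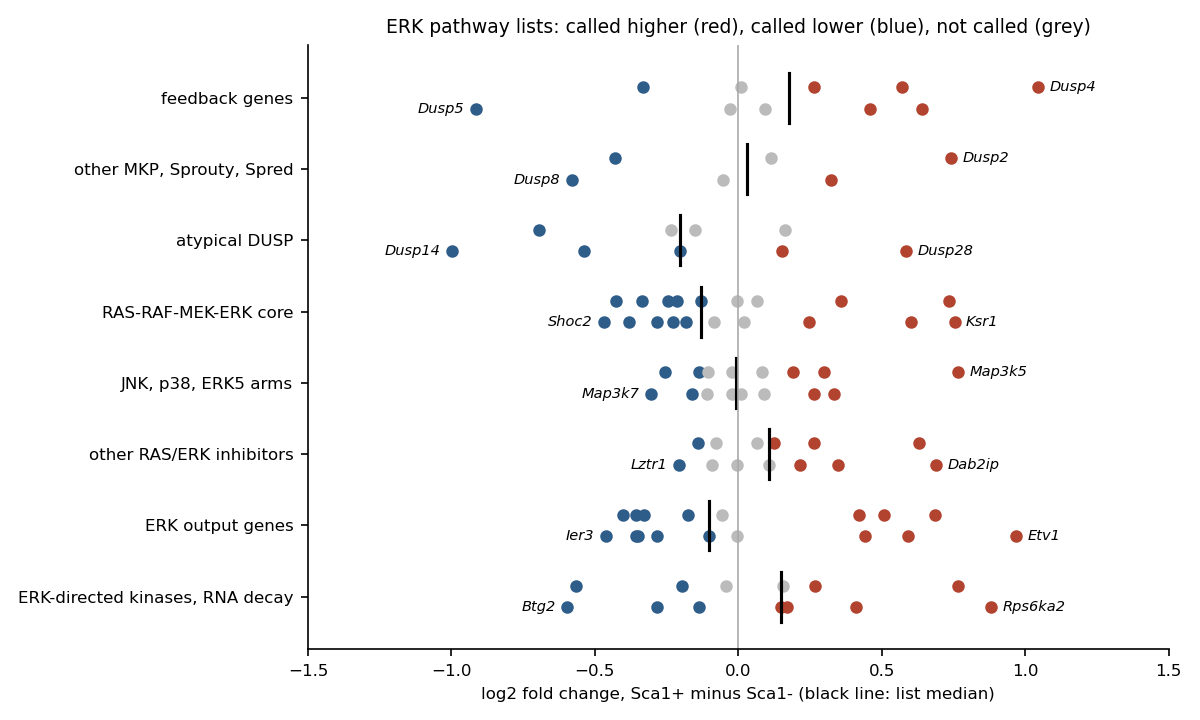
Log2 fold change (x axis, Sca1+ minus Sca1-) of every tested gene of the feedback group and of 7 related lists, 1 point per gene, in red where called higher, blue where called lower and grey where not called, with black lines for list medians. Each list spreads over both sides of 0, with medians between -0.20 and 0.18.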

How the data were processed

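RNA of 4 Sca1+ and 4 Sca1- libraries was made into libraries with a TruSeq kit and sequenced on a NextSeq 500. The submitters' processing notes name cutadapt 1.16, STAR 2.5.3a and the build GRCm38 (mm10), and the counting tool, its annotation and its use of strand are not given in the sources used here. The authors deposited raw counts for 16341 Ensembl genes and a table of normalized signal for 15372 genes, whose deposited signal values equalled the counts divided by the DESeq2 size factors of each library, to a relative difference of at most 5e-15. Symbols, positions, exon lengths and GC content came from GENCODE M21 on GRCm38, in which 16202 genes were found.

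Counts were tested with edgeR 4.0.16 in R 4.3.3 (filterByExpr, TMM, two-sided quasi-likelihood test, no covariate), with Benjamini-Hochberg adjustment over the 11717 genes tested and 0.05 as the threshold. The SE of a log2 fold change was its size divided by the square root of F. GC-corrected offsets subtracted, per library, a lowess curve (span 0.3) on transcript GC. The curve was fitted to the deviation of log2 CPM from each gene's mean over all libraries of both groups. The other alternatives used upper-quartile scaling, library totals, DESeq2 size factors, no filter, a minimum of 10 counts per library, the DESeq2 test (1.42.0), limma 3.58.1 (voom, and log2 of signal + 1), a replicate block, stricter thresholds and each library left out. The longest transcript as the length for phosphatase shares was chosen after seeing the data. The script was tested on simulated data. Motifs were searched on both strands of RefSeq promoter windows.

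The member genes, the pathway lists and the tests were chosen with earlier results of these data known. Named genes were the 10 members, Ly6a, all counted relatives and, of each pathway list, up to 4 called genes with the highest and 4 with the lowest fold change, and a gene that this rule takes is not reported here. Dusp13, Dusp27, Fos, Fosl1, Fosb, Jun, Junb and the promoters printed were chosen after their values were seen. Library totals limit the precision, and PCR duplicates cannot be told from separate molecules here.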

Additional observations from a re-analysis of the deposited data

Results flagged for a closer look

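Values were marked where the highest or lowest of the 4 libraries of a group lay apart from the other 3 by more than Dixon's 95% limit for the gap as a share of the group's range. Chance marks about 1 in 20 groups, and 9 of 136 were marked, 2 of them among the 20 groups of the 10 feedback genes. Dusp4 was at 3314.5 normalized counts in Sca1+ replicate 3, against 2806.5 to 2887 in the other Sca1+ libraries, and still lay on the side of its group. Dusp6 was at 3829 in Sca1+ replicate 1, against 4053 to 4093.5.

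In Sca1+ replicate 3, the relatives Dusp2 (47.9 against 41.4 to 42.0) and Dusp7 (1802 against 1464 to 1518) were also above their group. The same library was highest for Zfp36l2 (7324 against 6181 to 6318) and Jund (6455 against 4214 to 4420.5). This is the library whose levels rose most with GC content, and the part of GC content in these values was not tested. In the Sca1- group, Dusp14 was lowest in replicate 4 (1146 against 1169.9 to 1175), Mapk13 was lowest in replicate 1 (2016 against 2176 to 2178) and Dab2ip was highest in replicate 2 (2301 against 1961 to 1993).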

How the results depend on the processing

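The calls of Dusp1, Dusp4, Dusp5, Dusp6, Spry1, Spred1 and Spred2 held under all 18 alternative fits, at an adjusted p under 0.01 and with any 1 library left out. With a log2 change of 1 or more in size also required, 1 of the 10 genes was higher (Dusp4) and 0 lower, and 612 genes were higher and 103 lower among all tested. The fitted value of Dusp10 turned to -0.0049 without the low-count filter and to -0.0043 with DESeq2, and ran from -0.044 to 0.0454 with 1 library left out. That of Spry4 turned to 0.0124 with library totals alone and ran from -0.0898 to 0.0142 with 1 library left out. Spry2 was called with library totals alone (0.1361) and with GC-corrected offsets (0.15). Same-numbered libraries showed no strong shared deviation from their groups (correlations from -0.15 to 0.0957). Such correlations cannot decide whether the libraries of a number were sorted together. With a replicate block 3605 genes were higher and 3452 lower, with 5 feedback genes higher and 2 lower as before.

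Of the list medians, that of the other MAP kinase phosphatases, Sprouty and Spred genes was -0.1434 with GC-corrected offsets. The RAS to ERK core was at -0.0996 with upper-quartile scaling, -0.0861 with library totals and -0.0676 with GC-corrected offsets, and the JNK, p38 and ERK5 arms were at 0.036 with library totals. The other inhibitors were at 0.1371, 0.1504 and 0.1383 under those 3 settings, and from 0.042 (without Sca1+ replicate 3) to 0.1323 with 1 library left out. They had 1 lower gene with library totals and 5 with GC-corrected offsets. The ERK output genes ran from -0.1529 (without Sca1+ replicate 4) to -0.0921 with 1 library left out, and the downstream kinases and RNA decay factors were at -0.0053 with GC-corrected offsets and had 3 higher at an adjusted p under 0.01. The atypical phosphatases had 1 higher at an adjusted p under 0.01 and 1 to 2 with 1 library left out, the lower count without Sca1+ replicate 2 or Sca1- replicate 1 or 2. With that size required, every pathway list had 0 higher and 0 lower except the dissociation genes with 2 lower. Dusp7 turned to -0.0496 with GC-corrected offsets. Library totals alone moved the median of all genes from 0.0074 to 0.0502. The causes of these shifts were not tested. Small changes are limited by 4 libraries a group.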
